A study of Mus musculus with 24 samples.

Results

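The genes described here are the mouse genes that the deposited annotation places under the gene ontology process DNA replication, 117 of the 28109 genes of the table. E2F, cyclin D, CDK inhibitor, histone and Igf genes were to be left out together with Cdk4, Cdk6 and the Rb family, and none of these carried the term. The 117 genes are all protein coding, and the rule reads the annotation and no expression value. RNA-seq was made from C2C12, a myoblast cell line of mouse origin that the labels place on the C3H strain, and from primary myoblasts (PMs) of wild type C57BL/6 mice (C57/B6 in the labels) aged 3 to 4 weeks. Cells were transfected with an siRNA against luciferase (siControl) or with siRNAs against both Tead1 and Tead4 (siTead1/4), collected undifferentiated 24 h later (day 0), or moved to medium with 2% horse serum and collected at day 3 or day 6. Each of the 12 groups held 2 biological replicates, which makes 24 libraries, with 25453830 to 52784510 counts on genes per library. The sources do not say whether PM replicates came from separate mice, so the spread between them may be smaller than between animals. In these bulk samples, fewer cycling cells and less replication mRNA per cell cannot be told apart.

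Chromosomal DNA is copied once per cell cycle. In G1, the origin recognition complex with Cdc6 and Cdt1 loads the Mcm2-7 helicase on DNA (licensing), the helicase is then switched on by Cdc45, the GINS complex and a kinase, and polymerases alpha, delta and epsilon copy the strands with the help of a sliding clamp and its loader. Myoblasts divide, and they leave the cell cycle for good when they differentiate into myotubes. The ontology term also holds genes that do not work at the chromosomal fork, such as the polymerase of mitochondrial DNA, translesion polymerases, the nuclear factor I transcription factors (named for their role in adenovirus replication) and growth signals. The genes were therefore grouped by textbook role, matched by the listed symbol. Of the 117, 61 fell in 9 roles of chromosome replication (licensing with 16 genes, helicase activation with 8, polymerases and primase with 10, clamp and loaders with 7, single-strand binding with 2, strand maturation with 6, nucleotide supply with 4, fork stability and checkpoint with 4, chromatin assembly with 4) and 56 in 4 other roles (damage-tolerant polymerases with 10, mitochondrial replication with 4, nuclear factor I with 4, and 38 others). A separate list held 63 genes of the pathway without the term, among them the clamp Pcna and the licensing inhibitor Gmnn.

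Levels are given as CPM, counts divided by the library total after TMM scaling in the usual unit, and changes as log2 fold changes with their SE from edgeR's quasi-likelihood test. A call needed a Benjamini-Hochberg adjusted p below 0.05 over all genes tested together with a log2 fold change beyond 1 in either direction. Of the 117 genes, 113 passed the filter on low counts in C2C12 cells and 115 in PMs. Stra8 and Gm606 passed in neither cell type, and Fhit and Poln passed in PMs alone. Undifferentiated PMs already carried myotube mRNAs: the summed level of 7 myotube markers was 8034 to 10249 CPM in the 4 PM libraries of day 0 and 28.0 to 99.6 CPM in the 4 C2C12 libraries of day 0. Markers of other cells ranged from absent to abundant. In C2C12 cells all 4 endothelial markers stayed under 1 CPM in every library. In PMs the 4 endothelial markers summed to 4.62 to 13.8 CPM in the replicate 1 libraries and 2.79 to 5.12 CPM in the replicate 2 libraries, and the 4 Schwann cell markers to 5.02 to 14.2 and 2.08 to 2.98 CPM. The 4 macrophage markers reached a sum of 2.28 CPM at most. The 4 adipocyte markers summed to 3.82 to 40.8 CPM, most of it Cebpa, with Adipoq and Plin1 under 1 CPM in every library. The summed level of the 6 fibroblast markers moved with differentiation, in opposite directions in the 2 cell types. In siControl PMs they summed to 113 and 83.7 CPM at day 0, 285 and 225 CPM at day 3 and 588 and 383 CPM at day 6, most of it Col6a3, with Dcn at 64.3 and 40.2 CPM and Thy1 at 84.0 and 54.4 CPM at day 6. C2C12 cells with siControl had sums of 498 and 794 CPM at day 0, 325 and 266 CPM at day 3 and 274 and 208 CPM at day 6. Dcn went against that C2C12 sum, with 37 and 38 counts at day 0 and 7657 and 3490 counts at day 3. At day 6 it had 10442 and 1082 counts in siControl C2C12 cells. Tcf21 was under 1 CPM in every library, as were Thy1 and Lum in C2C12 cells. The part of these markers in the results below was not tested.

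The first question was how the replication genes changed when siControl cells differentiated. They fell together, in both cell types. At day 3, 61 of 113 were lower and 3 higher than at day 0 in C2C12 cells, with a median log2 fold change of -1.21, and 61 of 115 were lower and 4 higher in PMs, with a median of -1.18. Among all genes tested, 12.7% were called lower and 16.0% higher at day 3 in C2C12 cells, and 14.9% and 17.5% in PMs, with medians of -0.01 and 0.02. At day 6 the counts were 61 lower and 3 higher in C2C12 cells (median -1.13; all genes 14.0% and 17.1%) and 62 lower and 5 higher in PMs (median -1.20; all genes 15.3% and 20.2%). Leaving out a siControl replicate dropped it at days 0, 3 and 6 and left 1 siControl library a group. The spread then came from the siTead1/4 pairs alone. In C2C12 cells the biological coefficient of variation was 0.292 in place of 0.242, and fewer genes were called lower at either day. Of the genes named below, the C2C12 day 3 calls of Mcm5, Mcm6, Pola1, Rrm1, Tk1 and 5730590G19Rik were lost without either siControl replicate. That of Rfc3 was lost without replicate 2. The values of these genes were then -1.24 to -4.15. At day 6 the C2C12 calls of Cdc6, Mcm3, Mcm5, Mcm6, Pcna, Pola1, Pole, Rfc3, Rpa1, Rpa2 and Rrm1 were lost without siControl replicate 1. Their values were then -1.04 to -3.51. Those of Rfc3 (-1.78) and Rrm1 (-1.65) were also lost without siControl replicate 2. There were 56 genes that were lower at both days in both cell types, and 48 of them belonged to the 9 chromosome replication roles. The share of all genes that met these conditions together was not counted. It could not exceed 12.7% of the genes tested in C2C12 cells, the share called lower there at day 3.

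The genes that fell were mostly those of the chromosomal fork. In the 9 chromosome replication roles, 50 of 61 genes were lower at day 3 in C2C12 cells (median -2.42) and 50 of 61 in PMs (median -2.36), and none was called higher. In the 4 other roles, 11 of 52 were lower in C2C12 cells (median -0.45) and 11 of 54 in PMs (median -0.31). The summed level of the 61 genes was 7353 and 6815 CPM in the siControl C2C12 libraries of day 0, 2261 and 2240 CPM at day 3, and 1991 and 2546 CPM at day 6. In siControl PMs it was 6261 and 6226 CPM at day 0, 1818 and 1921 CPM at day 3, and 1793 and 1629 CPM at day 6. Day 0 did not overlap the later days in either cell type. The fall went with that of 6 proliferation markers from outside DNA replication, all 6 of which were lower at both days in both cell types, by -2.87 to -4.49 on the log2 scale.

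**Figure D1:**
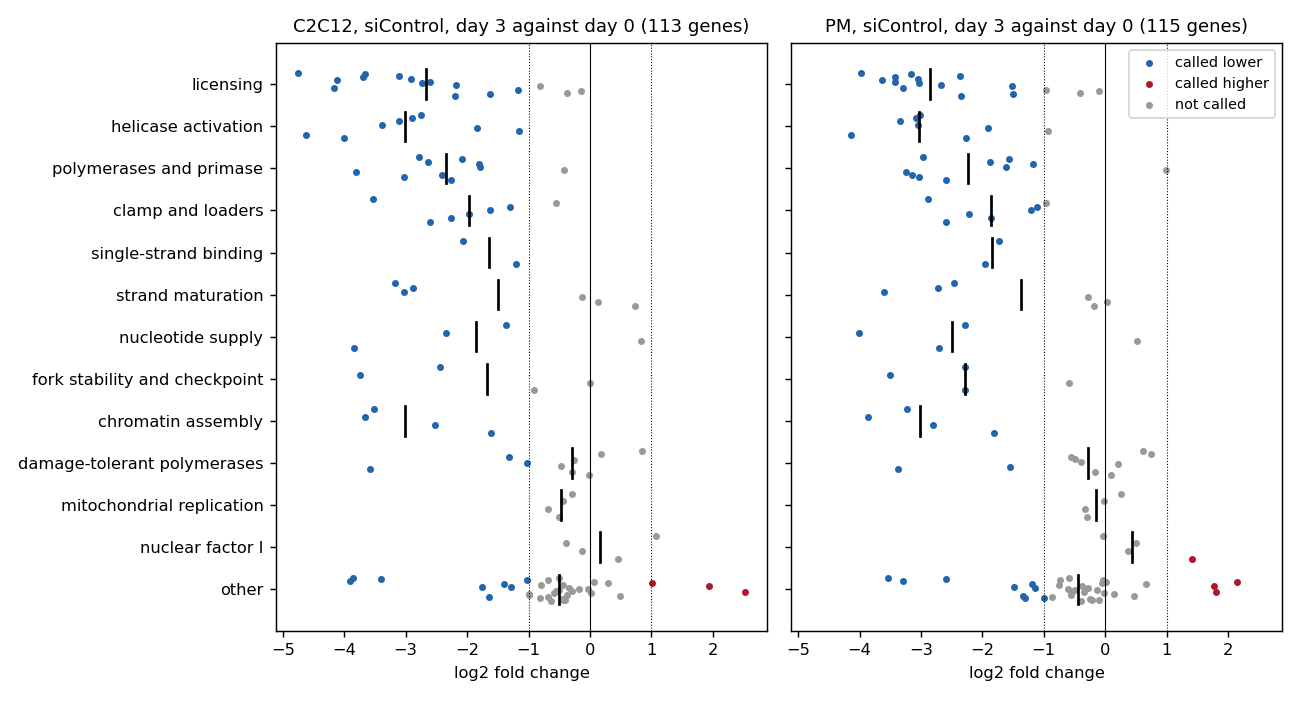
Log2 fold change (horizontal axis) of each DNA replication gene in siControl cells at day 3 against day 0, by role (rows), in C2C12 cells (left, 113 genes) and PMs (right, 115 genes). Points are genes, black bars are medians, and dotted lines mark the log2 fold change of 1 in either direction that a call needs. The upper 9 rows lie mostly left of -1 in both panels, while the 4 mitochondrial genes lie between -0.69 and 0.26 and the 4 nuclear factor I genes between -0.40 and 1.42.

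Licensing genes included Cdc6, which had the largest fall of all in C2C12 cells at day 3. Of 16 genes, 13 were lower at day 3 in each cell type. Cdc6, the ATPase that helps to load the helicase (chromosome 11, 98769115 to 98785254, mm9), stood at 56.7 and 65.5 CPM in undifferentiated siControl C2C12 cells, at 2.22 and 2.45 CPM at day 3, and at 1.35 and 5.88 CPM at day 6. In PMs it stood at 46.3 and 46.0 CPM, then 2.78 and 3.31 CPM, then 1.88 and 0.848 CPM. The day 3 change was -4.75 ± 0.79 in C2C12 cells (adjusted p = 0.0011) and -3.97 ± 0.33 in PMs (adjusted p = 3.8e-06), 26.9-fold and 15.7-fold lower. All later siControl libraries lay below both day 0 libraries, and the 2 C2C12 libraries of day 6 were the farthest apart.

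The 6 subunits of the Mcm2-7 helicase fell together, by -2.60 to -4.11 on the log2 scale in C2C12 cells and by -2.36 to -3.63 in PMs at day 3. In siControl C2C12 cells, Mcm2 went from 241 and 237 CPM at day 0 to 29.3 and 27.9 CPM at day 3 and 21.2 and 37.8 CPM at day 6. Mcm5 (chromosome 8, 77633427 to 77652338, mm9) went from 308 and 261 CPM to 17.8 and 16.0 CPM and then 10.5 and 32.0 CPM. Mcm7 went from 280 and 219 CPM to 40.8 and 36.4 CPM and then 33.0 and 52.2 CPM. In each of these genes day 3 and day 6 lay below day 0 without overlap, and at day 6 replicate 2 was the higher. Mcm3 (275 and 253 CPM at day 0, 22.3 and 19.6 CPM at day 3, 12.9 and 32.4 CPM at day 6), Mcm4 (214 and 228, then 31.4 and 29.0, then 21.6 and 38.2 CPM) and Mcm6 (321 and 296, then 53.3 and 51.2, then 33.0 and 61.1 CPM) had the same order of days. In PMs the day 0 libraries of the 6 genes ranged from 163 to 239 CPM, those of day 3 from 13.6 to 34.3 CPM and those of day 6 from 7.73 to 30.5 CPM. Per kb of gene length, the 6 subunits were close to each other at day 0, with means of 61.6 to 88.2 CPM per kb in C2C12 cells and 47.4 to 62.1 CPM per kb in PMs, against 12.2 ± 1.2 and 9.19 ± 0.04 CPM per kb (SD, n = 2) for Cdc6.

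**Figure D2:**
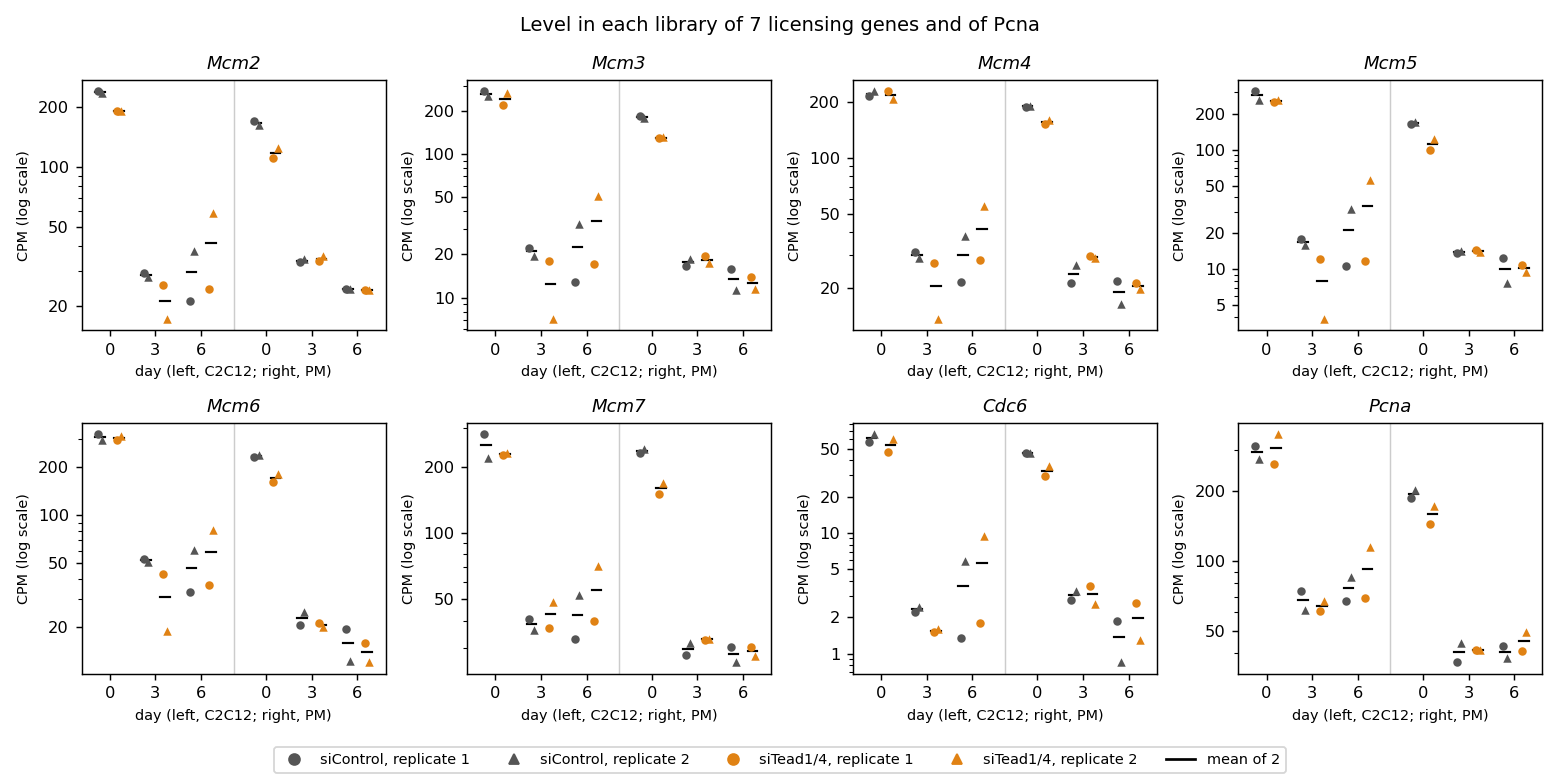
CPM on a log scale (vertical axis) of 7 licensing genes and of the clamp Pcna in each library, by day (horizontal axis), with C2C12 cells on the left of each panel and PMs on the right. Grey is siControl, orange siTead1/4, circles replicate 1, triangles replicate 2 and bars the mean of 2 libraries. Day 0 lies above days 3 and 6 in every panel, and C2C12 replicate 2 is the higher of each pair at day 6.

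The origin recognition complex did not move as a unit. Orc1, its ATPase subunit that comes and goes with the cell cycle, fell by -4.17 ± 0.56 in C2C12 cells (adjusted p = 3.3e-04) and by -3.30 ± 0.31 in PMs (adjusted p = 8.0e-06). Orc6 (-2.21 and -2.35) and Orc5 (-1.62 and -1.50) were lower in both cell types, and Orc2 was called lower in C2C12 cells (-1.18) but not in PMs at day 3 (-0.95). Orc3 (-0.14 ± 0.17 and -0.10 ± 0.09) and Orc4 (-0.38 ± 0.17 and -0.42 ± 0.12) were not called. Orc3 was at 56.3 and 56.0 CPM in siControl C2C12 cells at day 0 and at 49.5 and 54.9 CPM at day 3, and at 59.8 and 58.9 CPM and then 57.3 and 57.5 CPM in PMs. Of the other licensing genes, Cdt1, the partner of Cdc6, fell by -3.66 ± 0.27 and -3.16 ± 0.17, and Mcm8, a helicase relative, by -2.18 and -2.68. Mcm9, its partner, was called in PMs (-1.52) and not in C2C12 cells (-0.82). Among genes without the term, Gmnn, which binds and blocks Cdt1, fell by -3.46 ± 0.42 in C2C12 cells and -3.28 ± 0.18 in PMs.

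Many of these genes are known from the literature to be controlled by E2F factors, so the promoters were searched for E2F-like letters (TTTGGCGC, TTTCCCGC, TTTCGCGC or TTTGCCGC on either strand) in the window from 250 bases before to 50 bases after each start in the RefSeq table for GRCm38.p6. The table held 94 of the 117 genes, 88 by symbol and 6 by an older symbol. A match was present for 19 of the 94 genes (20.2%) and for 704 of all 27025 genes of the table (2.60%). A gene with several starts was counted if the window of any of them held the letters. By role, 17 of 51 chromosome replication genes (33.3%), 9 of 15 licensing genes (60.0%) and 2 of 43 genes of the other roles (4.65%) held one. Among the genes that were lower at day 3 in both cell types the share was 17 of 47 (36.2%), and among those lower in neither it was 2 of 38 (5.26%). The CCAAT box (CCAAT on either strand) was present for 54 of 94 genes (57.4%) against 41.1% of all genes, the CHR letters TTTGAA for 15 (16.0% against 20.2%), and the MCAT letters CATTCC, the core of the element that Tead factors bind, for 10 (10.6% against 16.6%). A match is a description of the letters and not of binding.

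The 6 promoters below belong to the genes with the largest day 3 falls, averaged over both cell types, among those with an E2F-like match, and Orc3 and Pold4 are shown as genes that were not called lower. They run 5′ to 3′ on the strand of the gene, in GRCm38.p6, with E2F-like letters in capitals. Where a gene had several starts, the window with the most E2F-like matches is shown, so the distances below refer to the start chosen that way.
Cdc6, chr11:98907901-98908200, plus strand: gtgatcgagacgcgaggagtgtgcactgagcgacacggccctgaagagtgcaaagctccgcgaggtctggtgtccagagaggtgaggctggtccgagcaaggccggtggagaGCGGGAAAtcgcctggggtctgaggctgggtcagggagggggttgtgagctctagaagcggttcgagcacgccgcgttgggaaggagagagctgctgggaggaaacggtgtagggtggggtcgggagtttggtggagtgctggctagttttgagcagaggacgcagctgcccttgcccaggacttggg
Mcm5, chr8:75109259-75109558, plus strand: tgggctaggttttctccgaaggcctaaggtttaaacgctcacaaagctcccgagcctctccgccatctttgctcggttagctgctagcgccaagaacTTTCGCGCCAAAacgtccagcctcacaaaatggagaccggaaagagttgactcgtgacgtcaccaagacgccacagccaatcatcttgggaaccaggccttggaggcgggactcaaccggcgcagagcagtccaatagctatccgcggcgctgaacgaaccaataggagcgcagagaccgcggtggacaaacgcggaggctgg
Orc1, chr4:108579204-108579503, plus strand: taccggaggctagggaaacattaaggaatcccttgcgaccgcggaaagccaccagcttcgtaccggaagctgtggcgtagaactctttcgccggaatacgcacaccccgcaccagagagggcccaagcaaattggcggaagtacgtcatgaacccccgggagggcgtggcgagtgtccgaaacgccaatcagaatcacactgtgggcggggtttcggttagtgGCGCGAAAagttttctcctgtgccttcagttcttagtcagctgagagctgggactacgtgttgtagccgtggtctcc
Dtl, chr1:191575495-191575794, minus strand: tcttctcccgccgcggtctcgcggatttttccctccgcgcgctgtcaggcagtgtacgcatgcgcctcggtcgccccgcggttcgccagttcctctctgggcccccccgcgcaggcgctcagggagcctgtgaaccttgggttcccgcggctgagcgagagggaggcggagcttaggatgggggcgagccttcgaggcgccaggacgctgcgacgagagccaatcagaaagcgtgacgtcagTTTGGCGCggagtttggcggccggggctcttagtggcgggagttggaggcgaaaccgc
Mcm3, chr1:20820263-20820562, minus strand: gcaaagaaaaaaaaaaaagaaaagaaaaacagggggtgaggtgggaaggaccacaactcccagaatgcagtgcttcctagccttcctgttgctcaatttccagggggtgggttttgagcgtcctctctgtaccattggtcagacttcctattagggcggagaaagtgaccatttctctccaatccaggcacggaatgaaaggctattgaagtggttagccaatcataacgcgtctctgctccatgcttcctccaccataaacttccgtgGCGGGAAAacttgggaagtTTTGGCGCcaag
Cdt1, chr8:122567765-122568064, plus strand: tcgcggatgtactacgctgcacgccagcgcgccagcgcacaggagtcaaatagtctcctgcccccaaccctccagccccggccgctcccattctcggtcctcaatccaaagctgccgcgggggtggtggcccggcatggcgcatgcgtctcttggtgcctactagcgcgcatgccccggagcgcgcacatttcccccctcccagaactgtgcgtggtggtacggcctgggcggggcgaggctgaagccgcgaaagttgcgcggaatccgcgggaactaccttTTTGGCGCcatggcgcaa
Orc3, chr4:34614893-34615192, minus strand: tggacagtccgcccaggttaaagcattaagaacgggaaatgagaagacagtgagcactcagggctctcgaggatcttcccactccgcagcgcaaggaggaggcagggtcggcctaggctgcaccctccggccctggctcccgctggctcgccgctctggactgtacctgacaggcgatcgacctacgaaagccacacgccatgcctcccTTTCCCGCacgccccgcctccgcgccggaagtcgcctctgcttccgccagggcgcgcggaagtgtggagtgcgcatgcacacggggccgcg
Pold4, chr19:4231643-4231942, plus strand: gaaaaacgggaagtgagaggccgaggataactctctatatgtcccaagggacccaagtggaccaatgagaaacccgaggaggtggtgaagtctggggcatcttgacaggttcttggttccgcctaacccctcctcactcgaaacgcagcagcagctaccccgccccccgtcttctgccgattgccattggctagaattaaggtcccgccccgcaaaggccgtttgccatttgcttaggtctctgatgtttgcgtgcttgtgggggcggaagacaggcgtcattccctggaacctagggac
In Mcm5 a pair of overlapping matches forms 1 run of capitals, and Mcm3 holds 2 separate matches after the start, at bases 20 and 39. The matches of Orc1 and Dtl begin 27 and 8 bases before the start, and those of Cdc6 and Mcm5 138 and 153 bases before it. Orc3 holds a match 41 bases before its start and was not called at day 3. The Pold4 window holds no E2F-like letters. Of the windows shown, those of Mcm3 and Pold4 hold 1 MCAT match each and the others none.

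Helicase activation followed licensing. All 8 genes were lower at day 3 in C2C12 cells and 7 of 8 in PMs, with Gins4 at -0.93 ± 0.12 as the exception. Mcm10, which helps to start unwinding, had the second largest fall in C2C12 cells (-4.63 ± 0.77, adjusted p = 0.0011) and the largest in PMs (-4.14 ± 0.29, adjusted p = 1.3e-06). Recql4, a helicase needed for initiation, fell by -4.01 ± 0.59 in C2C12 cells and -2.27 ± 0.16 in PMs. Cdc45 (-2.75 and -3.01), Gins1 (-3.11 and -3.33) and Dbf4 (-2.90 and -3.08), the activator of the kinase Cdc7, were lower by similar amounts in both cell types. The gene listed as 5730590G19Rik, which RefSeq names Ticrr and whose product brings Cdc45 to origins, stayed among the 38 others. The list of helicase activation held it as Ticrr, and roles were matched by the listed symbol. It fell by -3.87 ± 0.75 and -3.54 ± 0.26. Dtl, also among the others and a receptor of the ubiquitin ligase that removes Cdt1 in S phase, fell by -3.90 ± 0.55 and -3.29 ± 0.18.

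Of the 10 polymerase and primase genes, 9 were lower at day 3 in each cell type. Pole, the catalytic subunit of the leading strand polymerase, fell by -3.81 ± 0.62 in C2C12 cells and -3.24 ± 0.30 in PMs. Pola1 (-2.79 and -2.96) and Prim1 (-3.03 and -3.04), which lay down primers, and Pold1 (-2.64 and -1.87), the catalytic subunit of the lagging strand polymerase, fell in both. The exception was Pold4, the small accessory subunit of polymerase delta, which is taken up below. The single-strand binding genes Rpa1 (-2.07 and -1.72) and Rpa3 (-1.21 and -1.96) fell, as did Rpa2 (-2.04 and -1.43), which lacks the term.

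Of the clamp and loader genes, 6 of 7 were lower at day 3 in each cell type, among them Rfc3 (-1.97 ± 0.30 and -2.23 ± 0.14). Chtf8 was the one not called at day 3 (-0.55 and -0.96). The clamp itself, Pcna, was at 313 and 273 CPM in undifferentiated C2C12 cells with siControl, 74.0 and 61.5 CPM at day 3 and 67.4 and 85.6 CPM at day 6. In PMs it was at 186 and 201 CPM, then 36.6 and 44.3 CPM, then 43.2 and 38.3 CPM. It fell by -2.15 ± 0.27 and -2.31 ± 0.14 at day 3. Strand maturation was split. Fen1 (-2.88 and -2.72), Lig1 (-3.03 and -3.61) and Dna2 (-3.18 and -2.46), which process and join Okazaki fragments, fell. Lig3 (-0.12 and -0.28), Lig4 (0.14 and 0.03), ligases of DNA repair, and the topoisomerase Top1 (0.74 and -0.18) were not called. Fen1 shares 78.8% of its exon bases with a gene on the opposite strand and Gins2 69.0%, so without strand their levels are uncertain. In all, 18 of the 117 genes share at least 10% of their length with another gene, which limits their levels too. Among them are Rev1 (29.1%), Lig3 (27.6%), Ccdc111 (26.8%), Ing4 (26.6%, same strand), Rbbp4 (17.4% and 17.1%) and Polg (15.6%).

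Nucleotide supply showed both directions. Rrm2, the small subunit of ribonucleotide reductase that is made in S phase (chromosome 12, 25393106 to 25399011, mm9), had the highest level per length of all 117 genes at day 0, with 306 ± 27 CPM per kb in C2C12 cells and 315 ± 23 CPM per kb in PMs (SD, n = 2). It stood at 774 and 683 CPM in siControl C2C12 cells at day 0, 167 and 129 CPM at day 3, and 137 and 148 CPM at day 6. In PMs it stood at 711 and 789 CPM, then 49.0 and 48.3 CPM, then 32.4 and 30.5 CPM. The later days lay far below day 0 in both cell types, and those of PMs lay below those of C2C12 cells. Rrm1, the large subunit, fell by -1.36 ± 0.30 in C2C12 cells and -2.28 ± 0.13 in PMs, and thymidine kinase 1 (Tk1) by -3.85 ± 0.78 and -2.71 ± 0.22. Rrm2b, the small subunit that p53 can induce in resting cells, went the other way: it was at 23.1 and 26.1 CPM at day 0 and at 48.9 and 53.5 CPM at day 6 in C2C12 cells with siControl, a rise of 1.02 ± 0.32 (adjusted p = 0.027). In PMs its change at day 6, 0.78 ± 0.18 (adjusted p = 0.0039), stayed under the fold threshold.

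All 4 chromatin assembly genes were lower at day 3 in both cell types. Chaf1a (-3.51 and -3.22) and Chaf1b (-3.66 and -3.85), subunits of the factor that deposits histones behind the fork, fell, as did Nasp, a histone chaperone (-2.52 and -2.80), and Ssrp1, a subunit of FACT (-1.62 and -1.81). In the fork stability group, Brca1 (-3.74 and -3.50) and the helicase Blm (-2.45 and -2.28) fell, whereas Rbbp4, a histone-binding protein of many complexes, was at -0.01 ± 0.18 and -0.58 ± 0.10 and was not called.

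In the 4 other roles most genes were not called. None of the 4 mitochondrial genes was called at day 3 or day 6. Polg, the mitochondrial polymerase, was at -0.45 ± 0.24 in C2C12 cells and -0.01 ± 0.10 in PMs at day 3, Ssbp1 at -0.51 ± 0.18 and -0.30 ± 0.10, and Tfam, which packages mitochondrial DNA and lacks the term, was likewise not called. Among damage-tolerant polymerases, Polq fell in both cell types (-3.58 ± 0.85 and -3.37 ± 0.45), Polh (-1.31) and Polk (-1.02) were called in C2C12 cells, Poln (-1.55) in PMs, and Polb, Poli, Poll, Rev1, Rev3l and Ccdc111 were not called. Of the nuclear factor I genes, Nfix rose in PMs, from 127 and 116 CPM at day 0 to 332 and 343 CPM at day 3 (1.42 ± 0.12, adjusted p = 3.5e-06). In C2C12 cells Nfix was at 259 and 214 CPM at day 0 and 332 and 337 CPM at day 3, a change of 0.46 ± 0.35 that was not called. Nfib (-0.40 and 0.51) and Nfic (-0.13 and 0.38) were not called. Of the 38 others, Pdgfb rose in both cell types (2.52 ± 0.39 and 1.80 ± 0.13), as did Krt7, a keratin of epithelia at under 4 CPM in all libraries (1.94 ± 0.64 and 1.78 ± 0.53). The Krt7 calls were lost in C2C12 cells without siControl replicate 1 (2.71) or 2 (1.11), and in PMs without siControl replicate 1 (0.41). Ing4, a chromatin reader, rose in C2C12 cells with a value just past the fold threshold (1.0 ± 0.16), and the call was lost with library totals alone (0.94) or without either siControl replicate (1.06 and 0.96). Fhit, under 1 CPM in every library, rose in PMs (2.15 ± 0.38).

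Genes of the pathway without the term also fell. Of 63, 43 were lower and 1 higher at day 3 in C2C12 cells (median -1.58) and 44 lower and none higher in PMs (median -1.63). Exo1 (-4.67 and -3.88), Clspn (-4.21 and -3.43) and Chek1 (-3.49 and -3.39) of the fork checkpoint and repair fell in both cell types. The one that rose was Rad9b, a relative of a checkpoint clamp subunit (1.89 ± 0.44).

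The second comparison was between the cell types. At day 0 of siControl cells, 3 of 115 genes were higher and 5 lower in PMs than in C2C12 cells, with a median of -0.29, where 26.8% of all genes were called. Pold4 (-1.81 ± 0.24), Gins3 (-1.22), Orc1 (-1.13), Orc6 (-1.10) and Recql4 (-1.09) were lower in PMs. Nfia, at 0.113 and 0.213 CPM in C2C12 cells and 15.8 and 12.7 CPM in PMs, was higher by 6.36 ± 0.57. Poln was higher by 1.67 ± 0.62, and Fhit had no count in either C2C12 library. In place of 8 genes, 3 were called without siControl replicate 1 and 5 without siControl replicate 2, and that of Orc1 was lost in both cases (-1.04 and -1.26), under the replicate block (-0.84) and under a minimum of 10 counts in every library (-1.07).

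The day 3 response of siControl cells differed between the cell types for 3 of 115 genes, 1 with a higher and 2 with a lower value in PMs, where 11.2% of all genes differed. Rrm2 fell by -4.0 ± 0.17 in PMs and -2.34 ± 0.29 in C2C12 cells, a difference of -1.65 ± 0.32 (adjusted p = 0.0019). The Werner syndrome helicase Wrn (chromosome 8, 34344856 to 34495999, mm9) went from 39.2 and 43.4 CPM to 8.25 and 9.43 CPM in PMs and from 27.7 and 33.4 CPM to 15.6 and 17.9 CPM in C2C12 cells, a difference of -1.36 ± 0.42 (adjusted p = 0.039). Pold4 was at 0.99 ± 0.24 in PMs and -0.42 ± 0.21 in C2C12 cells, a difference of 1.42 ± 0.34 (adjusted p = 0.0087). None of these 3 calls held when either siControl replicate was left out, with values of -1.62 to -1.64 for Rrm2, -1.30 to -1.41 for Wrn and 1.32 to 1.55 for Pold4.

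**Figure D3:**
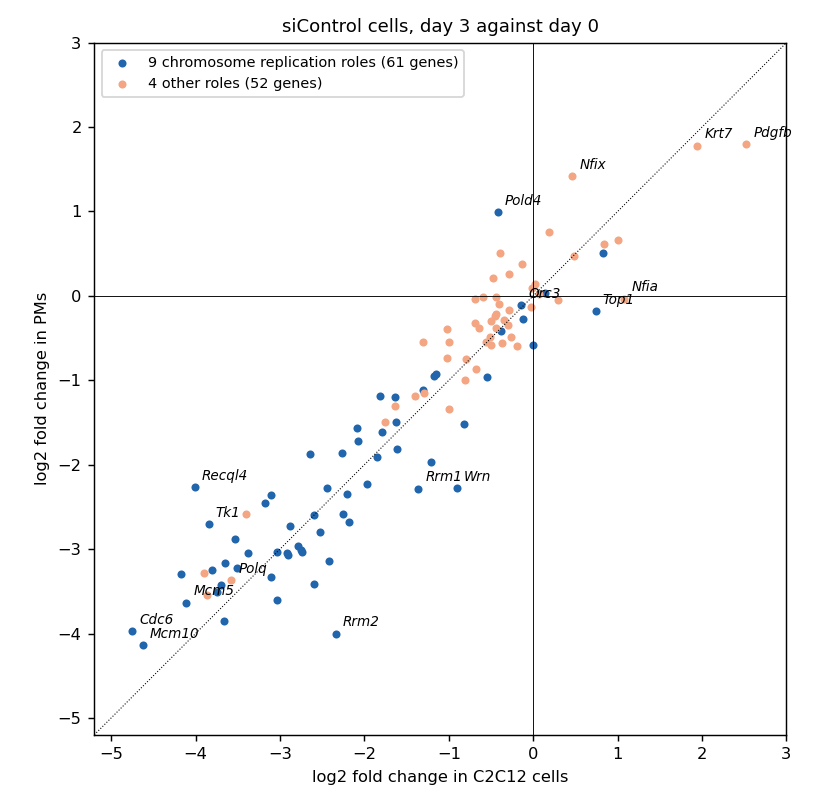
Log2 fold change at day 3 against day 0 in siControl C2C12 cells (horizontal axis) and siControl PMs (vertical axis) of the 113 genes tested in both, with the 61 genes of the 9 chromosome replication roles in blue and the 52 others in orange. The dotted line marks equal change. Most points lie near the line, with Rrm2 and Wrn below it and Pold4 above it.

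The third comparison asked what silencing of Tead1 and Tead4 did. Tead4 was at 18.7 and 21.2 CPM in siControl and 4.37 and 4.28 CPM in siTead1/4 C2C12 cells at day 0, and at 64.2 and 59.5 against 13.2 and 11.1 CPM in PMs. Its change was called at day 0 (-2.21 and -2.36) and day 3 (-1.76 and -2.58) in both cell types, and at day 6 in PMs (-1.75) but not in C2C12 cells (-1.28). The C2C12 calls of Tead4 were lost at day 0 without siControl replicate 1 or 2 or siTead1/4 replicate 2 (-2.12 to -2.30), and at day 3 without siControl replicate 1 or 2 or siTead1/4 replicate 1 (-1.32 to -1.96) or with a minimum of 10 counts (-1.79). Without siTead1/4 replicate 1 of day 0 alone, a setting chosen after seeing the data, both were lost as well (-2.22 and -1.76). The PM call at day 6 was lost without siTead1/4 replicate 1 (-1.50). Tead1 was at 28.8 CPM in replicate 1 and 4.50 CPM in replicate 2 of siTead1/4 C2C12 cells at day 0, against 70.5 and 113 CPM in siControl cells. Its change of -2.46 ± 0.66 in C2C12 cells at day 0 was not called (adjusted p = 0.17), whereas in PMs it was called at day 0 (-1.44) and day 3 (-1.68) and not at day 6 (-1.10). These PM calls of Tead1 were lost at day 0 without siControl replicate 1 or 2 or siTead1/4 replicate 2 (-1.21 to -1.54) and at day 3 without siControl replicate 1 (-1.65), and both were lost with all 24 libraries in one fit (-1.43 and -1.67). Under the replicate block the day 6 change was called (-1.12). In C2C12 cells at day 3, the 7 myotube markers summed to 6701 and 9612 CPM in siTead1/4 cells and 18376 and 20123 CPM in siControl cells.

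Few replication genes passed the threshold with silencing, as few of all genes did, and the replication genes that passed it rose. In C2C12 cells 1 of 113 genes was called at day 0 (0.438% of all genes), none at day 3 (1.27%) and none at day 6 (0.0457%). At day 3, 7 genes (6.19%, all genes 14.2%) and at day 6, 2 genes (1.77%, all genes 6.95%) had an unadjusted p under 0.05 in edgeR, and DESeq2 called none at either day. In PMs 2 of 115 genes were called at day 0 (2.60%), 2 at day 3 (3.30%) and 1 at day 6 (0.743%). The 63 pathway genes without the term gave no call at any day in either cell type in edgeR or in DESeq2. In PMs at day 0, 23 of them had an unadjusted p under 0.05 in edgeR (all genes 23.3%), against 0 to 9 elsewhere. There 56 of the 63 were below 0 (88.9%, all genes 50.8%), with a median of -0.29. At an adjusted p alone 4 of them were lower and none higher, where 4.31% and 3.41% of all genes were. The called genes among the 117 were Pdgfb, one of the 38 others, and Pold4.

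Pdgfb (chromosome 15, 79826330 to 79845238, mm9), the B chain of platelet-derived growth factor, a mitogen, was the leading one. In C2C12 cells it was at 5.26 and 6.43 CPM in siControl and 23.3 and 48.4 CPM in siTead1/4 cells at day 0, at 34.5 and 34.8 against 83.5 and 48.1 CPM at day 3, and at 26.3 and 37.7 against 65.1 and 80.0 CPM at day 6. In PMs it was at 8.35 and 7.89 against 24.9 and 25.6 CPM at day 0, 25.3 and 33.5 against 71.0 and 71.4 CPM at day 3, and 28.4 and 30.8 against 62.7 and 62.2 CPM at day 6. In all 6 comparisons both siTead1/4 libraries lay above both siControl libraries. The change was called in C2C12 cells at day 0 (2.61 ± 0.39, adjusted p = 0.028) and not at day 3 (0.90 ± 0.36) or day 6 (1.19 ± 0.36, adjusted p = 0.42). In PMs it was called at day 0 (1.63 ± 0.13, adjusted p = 3.8e-04), day 3 (1.27 ± 0.13, adjusted p = 6.9e-04) and day 6 (1.08 ± 0.13, adjusted p = 0.0043). The C2C12 call was lost when either siControl replicate was left out (2.48 and 2.76), and the day 6 call in PMs without siControl replicate 1 or either siTead1/4 replicate (1.01 to 1.08).

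Pold4 (chromosome 19, 4231899 to 4233631, mm9) was called in PMs. There it was at 15.3 and 21.7 CPM in siControl and 30.6 and 47.1 CPM in siTead1/4 cells at day 0, at 33.1 and 42.9 against 94.9 and 105 CPM at day 3, and at 94.5 and 72.5 against 118 and 94.4 CPM at day 6. In C2C12 cells it was at 70.3 and 59.4 against 46.3 and 57.6 CPM at day 0, 52.6 and 47.3 against 42.7 and 47.0 CPM at day 3, and 58.3 and 61.4 against 47.7 and 70.2 CPM at day 6. The siTead1/4 PMs lay above the siControl PMs at day 0 and day 3 and the groups overlapped at day 6, while in C2C12 cells siTead1/4 lay below siControl at day 0 and day 3. The change in PMs was called at day 0 (1.07 ± 0.24, adjusted p = 0.025) and day 3 (1.38 ± 0.24, adjusted p = 0.0075) and not at day 6 (0.35 ± 0.23). Leaving out any 1 of the 4 replicates ended the day 0 call (0.73 to 1.35), and leaving out siControl replicate 1 ended that of day 3 (1.21). In siControl PMs it also rose with differentiation by day 6 (2.11 ± 0.25, adjusted p = 3.2e-05), unlike the 9 other polymerase and primase genes, which fell.

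**Figure D4:**
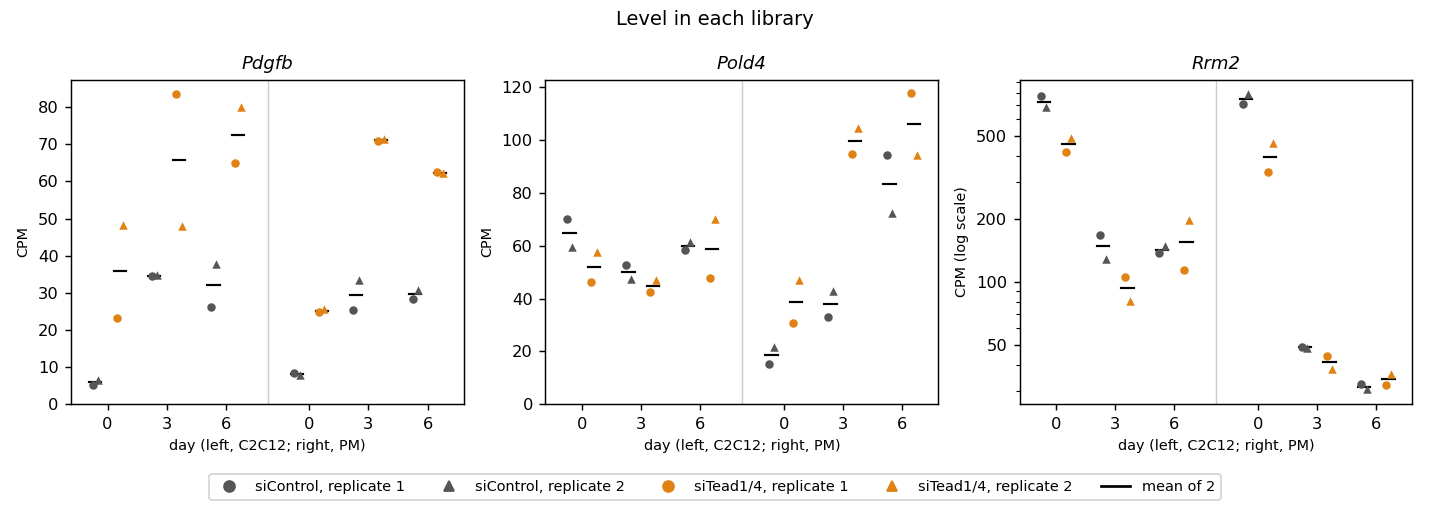
CPM of Pdgfb, Pold4 and Rrm2 in each library by day, with C2C12 cells on the left of each panel and PMs on the right; Rrm2 is on a log scale and the others on a linear scale from 0. Grey is siControl, orange siTead1/4, circles replicate 1, triangles replicate 2 and bars the mean of 2 libraries. Pdgfb is higher with siTead1/4 at every day, Pold4 is higher in PMs at days 0 and 3, and Rrm2 is lower with siTead1/4 at day 0 in both cell types.

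Below the fold threshold, more genes were lower than higher with siTead1/4 in undifferentiated PMs. At day 0, 11 of 115 genes were lower and 3 higher at an adjusted p under 0.05 with no minimum fold, where 4.31% of all genes were lower and 3.41% higher by that rule. The 11 were Rrm2 (-0.92 ± 0.15, adjusted p = 0.006), Phb (-0.81), Prim2 (-0.74), Nasp (-0.67), Rrm1 (-0.61), Mcm7 (-0.57), Cinp (-0.54), Mcm2 (-0.51), Pola2 (-0.48), Ssrp1 (-0.39) and Polg (-0.39). Beside Pdgfb and Pold4, Ing4 was higher (0.39). Both siTead1/4 libraries lay below both siControl libraries for 73 of 115 genes (63.5%) and for 46 of the 61 chromosome replication genes (75.4%), against 29.8% of all genes, and above them for 16 (13.9%) and 5 (8.2%), against 28.3%. Mcm2 was at 170 and 163 CPM in siControl and 111 and 124 CPM in siTead1/4 PMs, Mcm5 at 163 and 169 against 99.1 and 123 CPM, and Mcm7 at 231 and 239 against 150 and 169 CPM. Rrm2 was at 711 and 789 against 335 and 460 CPM, Cdc6 at 46.3 and 46.0 against 29.5 and 35.6 CPM, and Pcna at 186 and 201 against 145 and 173 CPM. The groups did not overlap in any of these 6 genes, of which only Mcm2, Mcm7 and Rrm2 had an adjusted p under 0.05. The median over the 61 genes was -0.39 on the log2 scale, and the 6 proliferation markers were at -0.45 to -0.58 with none called. These markers summed to 982 and 918 CPM in siControl and 672 and 688 CPM in siTead1/4 PMs, and their part in the result was not tested. The summed level of the 61 genes was 6261 and 6226 CPM in siControl and 4726 and 5044 CPM in siTead1/4 PMs.

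After differentiation the medians in PMs lay near 0. At day 3 the 61 genes had a median of 0.09 in PMs and at day 6 of 0.05, and both siTead1/4 libraries lay below both siControl libraries for 5 (8.2%, all genes 25.0%) and 3 (4.92%, all genes 18.2%) of the 61 and above them for 21 (34.4%, all genes 27.4%) and 11 (18%, all genes 18.4%). At an adjusted p alone, Rev3l (0.79) and Dtl (0.73) were higher and Phb (-0.77), Ccdc111 (-0.71) and Polg (-0.40) lower at day 3, beside Pdgfb and Pold4, where 3.91% of all genes were higher and 3.43% lower by that rule. The difference between the day 3 and the day 0 effect in PMs was called for none of the 115 genes (0.328% of all genes) in edgeR or in DESeq2, with 30 at an unadjusted p under 0.05 (26.1%, all genes 13.4%) and a median of 0.28. Of the 63 pathway genes, Asf1b, a histone chaperone, was called (1.36 ± 0.15, adjusted p = 0.012). In C2C12 cells none of 113 was called for this difference (0% of all genes) in edgeR or in DESeq2, with 5 at an unadjusted p under 0.05 (4.42%, all genes 11.4%).

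**Figure D5:**
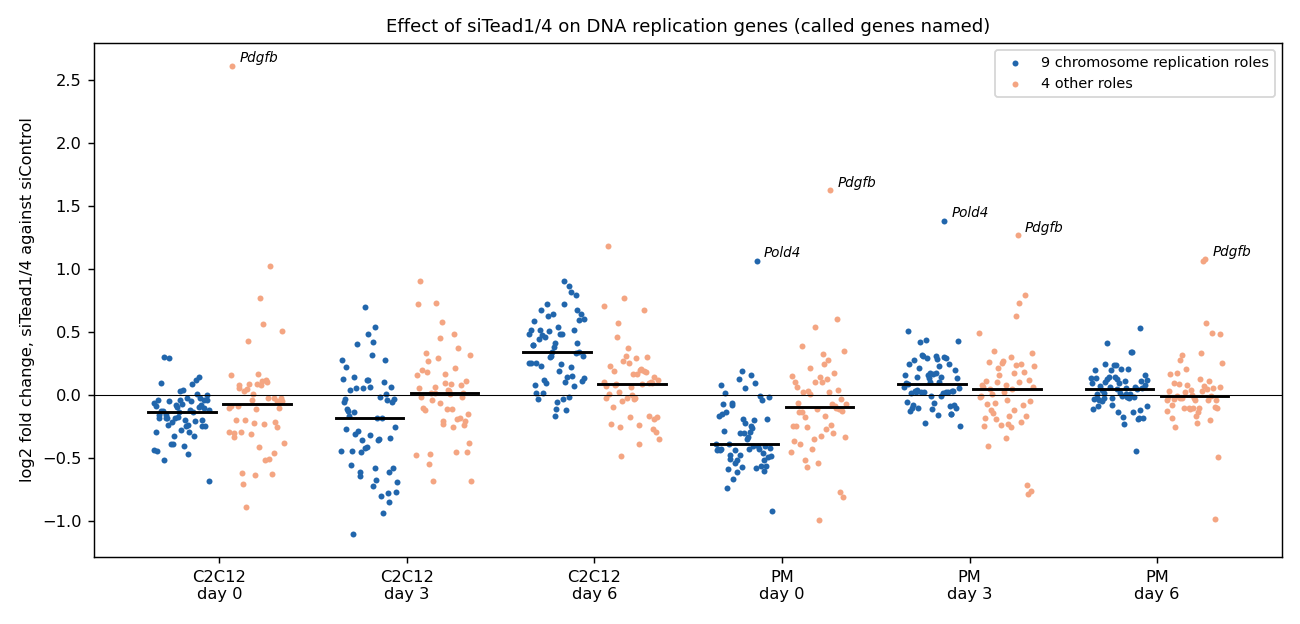
Log2 fold change of siTead1/4 against siControl (vertical axis) for each gene tested, by cell type and day (horizontal axis), with the 61 genes of the 9 chromosome replication roles in blue and the other genes in orange. Points are genes, bars are medians, and called genes are named. The blue points of PMs at day 0 lie mostly below 0, with a median of -0.39, and those of C2C12 cells at day 6 mostly above 0, with a median of 0.34.

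In C2C12 cells at day 0 the siTead1/4 effect was also mostly below 0, for 52 of the 61 genes (85.2%, all genes 47.5%) with a median of -0.13, against 53 of 61 (86.9%, all genes 50.8%) in PMs with a median of -0.39. Both siTead1/4 libraries lay below both siControl libraries for 18 of the 61 (29.5%, all genes 17.7%) and above them for 1 (1.64%, all genes 18.7%). At day 3 these counts were 24 (39.3%, all genes 23.6%) and 5 (8.2%, all genes 22.9%), and at day 6 none (all genes 21.0%) and 9 (14.8%, all genes 18.6%). The median of the 61 genes was -0.18 at day 3 and 0.34 at day 6. None of the 61 genes was called at any of these days in edgeR or in DESeq2, with 1, 1 and 0 at an unadjusted p under 0.05.

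The siTead1/4 replicates of C2C12 cells differed from each other more than other pairs did. Over genes, log2 replicate differences had an SD of 0.63 to 0.74 in the 3 siTead1/4 groups of C2C12 cells and of 0.42 to 0.57 in the 9 other groups. At day 3, Mcm5 was at 12.1 and 3.82 CPM in siTead1/4 cells against 17.8 and 16.0 CPM, Mcm2 at 25.3 and 17.1 against 29.3 and 27.9 CPM, and Mcm7 at 36.9 and 48.5 against 40.8 and 36.4 CPM. Mcm2 and Mcm5 lay below siControl in both libraries and Mcm7 overlapped it. At day 6, Mcm5 was at 11.8 and 55.4 against 10.5 and 32.0 CPM, Cdc6 at 1.79 and 9.37 against 1.35 and 5.88 CPM, and Pcna at 69.1 and 115 against 67.4 and 85.6 CPM. Replicate 2 was thus the higher with either siRNA at day 6, and the proliferation marker Mki67 moved with it (24.3 and 155 CPM with siTead1/4, 16.3 and 94.7 CPM with siControl); the part of this in the results was not tested. Over the 61 genes, the median log2 ratio of replicate 2 to replicate 1 at day 6 was 0.68 with siTead1/4 and 0.43 with siControl. The median siTead1/4 effect of the 113 genes at day 6, 0.20, became -0.10 without siTead1/4 replicate 2.

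A difference in the siTead1/4 effect between PMs and C2C12 cells was called for 1 of 115 genes, Pold4 at day 3 (1.55 ± 0.34, adjusted p = 0.032), where 1.25% of all genes were called. The call was lost when siControl replicate 1 or 2 or siTead1/4 replicate 2 was left out (1.30 to 1.82). At day 0 no gene of the 115 was called in edgeR (0.00591% of all genes), with 3 at an unadjusted p under 0.05 (2.61%, all genes 4.28%) and 1 call in DESeq2. At day 6 none was called (0.0354%), with 1 at an unadjusted p under 0.05 (0.87%, all genes 5.41%) and none in DESeq2. These tests share the siControl and siTead1/4 libraries of the comparisons above.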

How the data were processed

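Total polyadenylated RNA of 24 libraries was sequenced without strand. Per the labels, the authors processed the reads with CASAVA 1.8.2, TopHat2 2.0.10, Bowtie2 2.1.0, HTSeq 0.6.1 and DESeq2 1.8.1 on mm9, and they deposited 1 table with the raw count of each gene in each library. The table also holds gene length in bases (another unit), coordinates and ontology terms. Its normalized columns and the columns of 12 libraries that are not listed (84 per-library columns in all) were not used.

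Counts were tested in R 4.3.3 with edgeR 4.0.16 (filterByExpr, TMM, glmQLFit and glmQLFTest). Each cell type was fitted with 6 group means, and differences between cell types with all 24 libraries and 12 group means. P-values were adjusted over all genes tested, and DESeq2 1.42.0 served as an alternative. The SE is the log2 fold change divided by the square root of F. The fits were checked on simulated counts. Library totals of 25453830 to 52784510 counts limit precision at low genes. The p-values rest on the spread between the 2 samples of a group, shared over the 6 or 12 groups of the fit. In C2C12 cells the siControl comparisons therefore include the spread of the siTead1/4 groups. Gene length in the table gave CPM per kb.

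The ontology term that defines the genes, the role lists and the comparisons were chosen with earlier results of these data known, although the term's rule itself reads only the annotation. Named genes were the 8 largest called falls and up to 5 largest called rises at day 3 in each cell type, up to 6 called rises and falls of each siTead1/4 comparison, up to 4 of each test of a difference, and a fixed list of textbook genes; others are named to account for a role, after their values were seen. Promoters came from RefSeq (GRCm38.p6), and exon overlaps from GENCODE vM1 (mm9).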

Additional observations from a re-analysis of the deposited data

Results flagged for a closer look

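The following results were singled out because a test of the difference between C2C12 cells and PMs was passed. The day 3 response of siControl cells was lower in PMs than in C2C12 cells by -1.65 on the log2 scale for Rrm2 and by -1.36 for Wrn, and higher by 1.42 for Pold4. The effect of siTead1/4 at day 3 was higher in PMs by 1.55 for Pold4. With 2 libraries a group, no group was searched for outlying samples.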

How the results depend on the processing

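Depth limits the low genes (Krt7, Fhit, Poln, Nfia in C2C12 cells), and 2 replicates a group limit all. The count of called genes in siControl cells moved little with the tool, scaling or filter. Leaving out 1 replicate of one siRNA gave 42 to 64 called genes at day 3 and 29 to 64 at day 6 in C2C12 cells (64 with all libraries at either day), and 62 to 67 and 65 to 69 in PMs. The lowest counts in C2C12 cells came without a siControl replicate. There 1 siControl library a group was left, and the spread came from the siTead1/4 pairs alone. For siTead1/4 against siControl the ranges were 0 to 1, 0 to 2 and 0 to 0 at days 0, 3 and 6 in C2C12 cells and 1 to 2, 1 to 2 and 0 to 1 in PMs. They were 0 to 3 for the change of that effect from day 0 to day 3 in C2C12 cells, 0 to 2 for its difference between the cell types at day 3, 0 to 4 for the difference of the day 3 response, and 3 to 9 for day 0 of PMs against C2C12 cells.

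With no filter, 1 gene was called in C2C12 cells for siTead1/4 at day 3, at day 6 and for the change from day 0 to day 3, and 1 for the difference between cell types at day 0, as with DESeq2. With all 24 libraries in one fit, the change from day 0 to day 3 gave 1 gene in C2C12 cells, and day 6 of PMs gave 0. Library totals alone gave 5 genes for the difference of the day 3 response, and a minimum of 10 counts in every library gave 4 at day 0 between cell types. An adjusted p alone gave 14 and 7 genes for siTead1/4 in PMs at days 0 and 3, 5 for the difference of the day 3 response, and 29 at day 0 between cell types.

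Scaling by library totals alone moved the median of all genes at day 3 in PMs from 0.02 to -0.20 and that of the 115 genes to -1.40, and turned the median difference of the day 3 response from 0.14 to -0.025. The median difference of the siTead1/4 effect at day 6, -0.12, became 0.10 without siControl replicate 1 and 0.19 without siTead1/4 replicate 2, with a range over left-out replicates of -0.395 to 0.189. The C2C12 median at day 6, 0.20, ranged from -0.098 without siTead1/4 replicate 2 to 0.351 without siControl replicate 2. No named gene that was called changed sign. Leaving out siTead1/4 replicate 1 of day 0 in C2C12 cells, chosen after seeing its Tead1 level, changed no count by over 1.5 times.

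The labels do not say that replicate numbers mark a shared culture or animal, and not every pair of groups had a correlation of same-numbered deviations over 0.1, so the main fits have no block. In C2C12 cells it was over 0.1 in 6 of 15 pairs (-0.168 to 0.468). In PMs it was over 0.1 in 14 of 15 (0.0548 to 0.503), with 0.377, 0.409 and 0.503 between the siRNAs of one day, which hints at pairing there, and the biological coefficient of variation went from 0.15 to 0.113 with the block. With the replicate block, 63 and 64 genes were called at days 3 and 6 in C2C12 cells and 64 and 67 in PMs, and 4 for the difference of the day 3 response. The block ended the Orc1 call at day 0 between cell types (-0.84), gave calls for Tead1 in PMs at day 6 (-1.12) and for Nfix at day 0 between cell types (-1.12), and changed no other call of a named gene.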
